A study of Mus musculus with 10 samples.

Results

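The cytosolic ribosomal protein genes encode the proteins of the ribosome that translates messages from the nuclear genome. They were taken as every gene whose RefSeq mouse symbol starts with Rpl or Rps and a digit, with Rplp0, Rplp1, Rplp2 and Rpsa, leaving out the Rps6k kinases, Rps19bp1 and named pseudogenes. Of 94 such symbols in RefSeq, 87 had a probe on the array, out of 21613 named genes in all, and 178 probes represented them. The other 7 (Rps12l1, Rps27rt, Rpl6l, Rps3a3, Rps3a2, Rpl37 and Rpl32p) were not analysed here. By symbol alone, 34 of the 87 start with Rps and are counted as small subunit genes, and 53 start with Rpl and are counted as large subunit genes. The rule also takes in genes such as Rpl7l1, Rps23rg1 and Rps4l. Whether the product of each gene is part of a ribosome was not checked.

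Livers came from 10 male TG221 mice, a B6D2F2-background line that overexpresses the microRNA miR-221, and each mouse had 1 array. Every mouse was dosed by gavage with carbon tetrachloride (CCl4), a hepatotoxin, 3 times weekly for 14 weeks at 20% (v/v) in olive oil, starting at an age of 4 to 6 weeks. In the 6 mice of the metformin plus CCl4 group, oral metformin, a drug for type 2 diabetes, was added at 300 mg/kg each day beginning 3 weeks after the first CCl4 dose, and the 4 mice of the CCl4 group had no metformin. Tissue was collected at 24 weeks and is labelled both as liver and as HCC (hepatocellular carcinoma); no mouse here lacked the transgene or CCl4, and the promoter that drives the transgene is not given in the sources used here.

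A ribosome contains one copy of nearly every ribosomal protein, and the stalk proteins P1 and P2 are the main exception. Growing cells make these proteins in step with ribosomal RNA, and a large share of a cell's transcription and translation goes into them. In vertebrates their messages begin with a C followed by a run of pyrimidines, the 5' terminal oligopyrimidine (TOP) tract, through which the kinase complex mTORC1 and the RNA-binding protein LARP1 control their translation. In the liver, feeding and fasting change how strongly these messages are translated.

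Starts of 8 of these genes with a tract near the annotated start are shown here, from the chromosomes used. They belong to the 4 genes with the highest and the 4 with the lowest differences between the groups by the main scaling. They come from RefSeq promoter sequences of build GRCm38.p6, each with 40 bases before the annotated start and 10 from it on, written 5′ to 3′ on the gene's own strand, and the capitals mark the run that begins with C and holds at least 4 further pyrimidines; in Rps26, Rpl27a and Rpl22l1 the run goes on past the last base shown. Rps21 (chr2:180257339-180257388, plus strand), Rps26 (chr10:128626497-128626546, minus strand), Rps23 (chr13:90923082-90923131, plus strand) and Rpl35a (chr16:33056442-33056491, plus strand) rose. Rpl27a (chr7:109519155-109519204), Rpl22l1 (chr3:28805468-28805517), Rpl12 (chr2:32961672-32961721) and Rps23rg1 (chr8:3567958-3568007), all on the plus strand, were not called.
Rps21: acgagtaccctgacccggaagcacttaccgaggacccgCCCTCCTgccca
Rps26: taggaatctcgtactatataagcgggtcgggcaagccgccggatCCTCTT
Rps23: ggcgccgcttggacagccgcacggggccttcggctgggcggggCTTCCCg
Rpl35a: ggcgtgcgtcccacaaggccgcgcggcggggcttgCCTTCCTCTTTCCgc
Rpl27a: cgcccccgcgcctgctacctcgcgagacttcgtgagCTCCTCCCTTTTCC
Rpl22l1: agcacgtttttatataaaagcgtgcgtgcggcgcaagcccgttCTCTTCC
Rpl12: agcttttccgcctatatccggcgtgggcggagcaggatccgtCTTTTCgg
Rps23rg1: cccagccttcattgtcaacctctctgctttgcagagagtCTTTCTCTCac

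RefSeq's table gave a promoter of 250 bases before to 50 after the start for 66 of the 87 genes, and 21 had no entry. A gene was counted when any of its promoters matched. A pyrimidine run of this kind began within 5 bases of the annotated start on the gene's strand in 31 of the 66 (47.0%), against 21.2% of all 27025 genes with a promoter. The letters CCGGAAG, the binding motif of ETS factors such as GABP, lay on either strand in 25 (37.9%), against 9.93% of all genes with a promoter. AAGATGG, the core of the YY1 motif, was in 10 (15.2%, against 7.28%), and the TATA box letters TATAAA were in 8 (12.1%, against 15.7%). CCGGAAG and AAGATGG share the letters AAG and can overlap, and the reverse complement of CCGGAAG contains CTTCC, which by itself meets the tract pattern; a match describes the window only. Of the 31 genes with a tract at the start, 16 rose by the main scaling, as did 21 of the 35 without one, and the median log2 differences were 0.30 and 0.38; this split was not tested. Among the 25 genes with CCGGAAG 14 rose, and among the 41 without it 23 did.

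Levels are given throughout as the log2 processed spot signal minus the array's own 75th percentile (P75) over non-control spots, and a gene is represented by its brightest probe over all 10 arrays. Differences are metformin plus CCl4 minus CCl4, and a gene is called when limma's adjusted p is below 0.05 over all 55681 probes. On this scale 48 of the 87 ribosomal protein genes rose, 0 fell and 39 were not called, and scaling to the spike-in probes instead gave 0 higher and 14 lower. Without adjustment of p, limma put 57 genes higher and 2 lower (Rpl7l1 and Rps23rg1) below 0.05 by P75 scaling, and 0 higher and 21 lower by spike-in scaling. At that unadjusted threshold 22.0% of all named genes were higher and 16.2% lower by P75 scaling, and 3.58% and 54.7% by spike-in scaling. With adjusted p and P75 scaling, the background share of named genes called was 27.0%, with 15.9% higher and 11.1% lower. Among the 13233 named genes well above background on all 10 arrays 23.0% were higher, and among the brightest 10% of named genes 25.9% were higher and 10.4% lower. The 48 ribosomal protein genes make up 55.2% of their family. Their median log2 difference was 0.32, with a range of -0.34 to 0.70, against 0.02 over all named genes and 0.17 over the brightest 10%. Most differences were small: at a stricter threshold of adjusted p below 0.01 and at least 1.5-fold, 5 genes (Rpl22, Rpl36a, Rps20, Rps21 and Rps26) passed, where the background was 7.42% higher and 5.47% lower.

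Spike-in probes measure control RNA added to every sample in an amount meant to be equal. Scaling to them relates a gene's signal to that added RNA, and scaling to P75 relates it to the other genes. With 276 spike-in spots per array as the reference, the median over all named genes moved from 0.02 to -0.53, and 2.70% of named genes were called higher and 48.6% lower. The ribosomal protein median became -0.24 and 8 genes were still positive (Rpl13, Rpl22, Rpl36a, Rpl39l, Rps20, Rps21, Rps23 and Rps26), of which none was called. Called lower were Rpl10a, Rpl10l, Rpl12, Rpl23a, Rpl27a, Rpl3, Rpl36, Rpl41, Rpl7l1, Rplp0, Rps15, Rps16, Rps2 and Rps23rg1. Changing the scaling lowers every gene's difference by the same 0.55, so the gap of 0.29 between the ribosomal protein median and that of all named genes, and the order of the genes, are the same under both by construction. The spike-in mean itself ran from 12.12 to 12.44 log2 units in the metformin group and from 11.52 to 12.17 in the CCl4 group. Every higher call below is therefore a call relative to the other genes on the array.

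Each mouse's median level over the 87 genes was 7.36, 7.48, 7.49, 7.52, 7.67 and 7.65 in metformin mice 1 to 6. In CCl4 mice 1 to 4 it was 7.03, 7.13, 7.10 and 7.10, so the groups did not overlap. After scaling to the spike-ins the values were 3.43, 3.55, 3.29, 3.27, 3.30 and 3.42 with metformin and 3.14, 3.32, 3.75 and 3.74 without, and CCl4 mice 1 and 2 lay among or below the metformin mice while mice 3 and 4 lay above all of them.

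**Figure D1:**
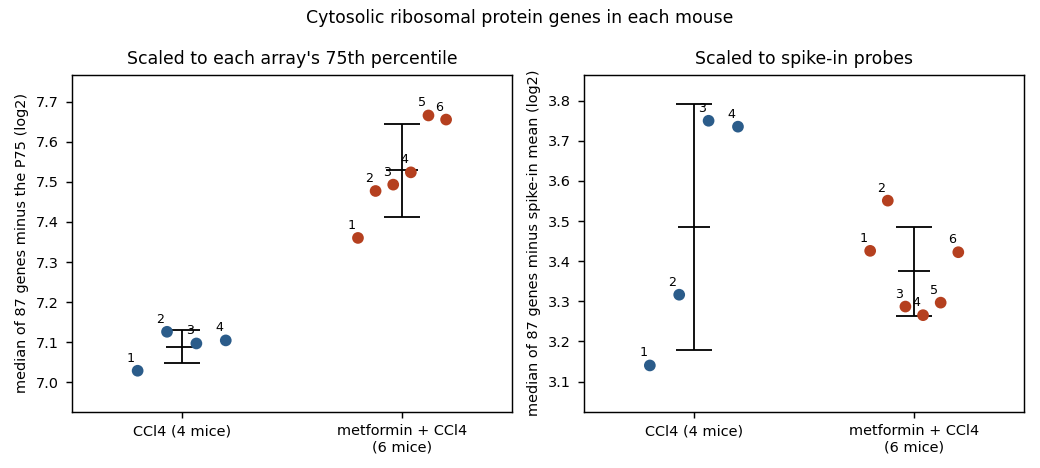
Median log2 level of the 87 ribosomal protein genes in each mouse (points, numbered by mouse) with the group mean and SD (bars), after scaling to each array's 75th percentile (left) or to the spike-in mean (right), 4 CCl4 mice and 6 metformin mice. The groups are apart on the left, at 7.03 to 7.13 and 7.36 to 7.67, and overlap on the right, where the CCl4 mice run from 3.14 to 3.75.

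The metformin arrays lay on 1 slide and the CCl4 arrays on another, and each slide was scanned on its own day, so slide, scan day and metformin cannot be told apart. The position on the slide could be compared: metformin mice 1 and 2 and all CCl4 mice were in row 1, and metformin mice 3 to 6 in row 2. Metformin mice 1 and 2 had the lowest member medians of their group. In 48 of the 87 genes (55.2%) both row 1 metformin mice were below all 4 row 2 metformin mice, and in 0 were both above; over the 13233 named genes well above background these shares were 14.5% and 11.6%. The median difference between the rows was 0.16 for the ribosomal protein genes and 0.00 for the 13233 genes. Within row 1, metformin mice 1 and 2 against the 4 CCl4 mice, the family's median difference was 0.23, against 0.07 over the 13233 genes. In 63 of the 87 genes both metformin mice were above every CCl4 mouse. That count was not made over the 13233 genes, so whether 63 is a large share cannot be said. With those 6 arrays alone limma called 1 gene higher (Rps21), and with the row as a covariate it called 20. At an unadjusted p below 0.05 these counts were 25 and 40, with 1 gene lower in each fit. Over all named genes, 17.0% were higher and 20.9% lower at that threshold with the 6 arrays. With the covariate these shares were 18.3% and 24.8%. The part of the slide in the result was not tested beyond these values.

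Calls were sensitive to single CCl4 mice. Without CCl4 mouse 1, 29 genes were called higher, and without mouse 2 or mouse 4 it was 31 each. Leaving out other mice gave between 32 and 48, and 0 genes were called lower in each of these 10 fits. The median difference stayed between 0.29 and 0.33 throughout. In all 48 called genes the 6 metformin values were above all 4 CCl4 values. A further 12 genes were separated in the same way without passing the test, among them Rpl10a, Rpl28, Rplp1, Rplp2, Rps10, Rps15a, Rps25, Rps29 and Rps9, so 60 of 87 were separated upward against 15.1% of named genes. Rpl7l1 was the 1 gene separated downward, against 9.82% of named genes, and 26 genes overlapped. The SD of the levels was larger in the metformin group in 73 of the 87 genes, with medians of 0.12 and 0.07, while over the 13233 genes it was larger in 53.7%. The metformin arrays lay in both slide rows and the CCl4 arrays in row 1 only. The metformin SD therefore includes the family's median row difference of 0.16, and the part of the row in the SD was not tested.

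**Figure D2:**
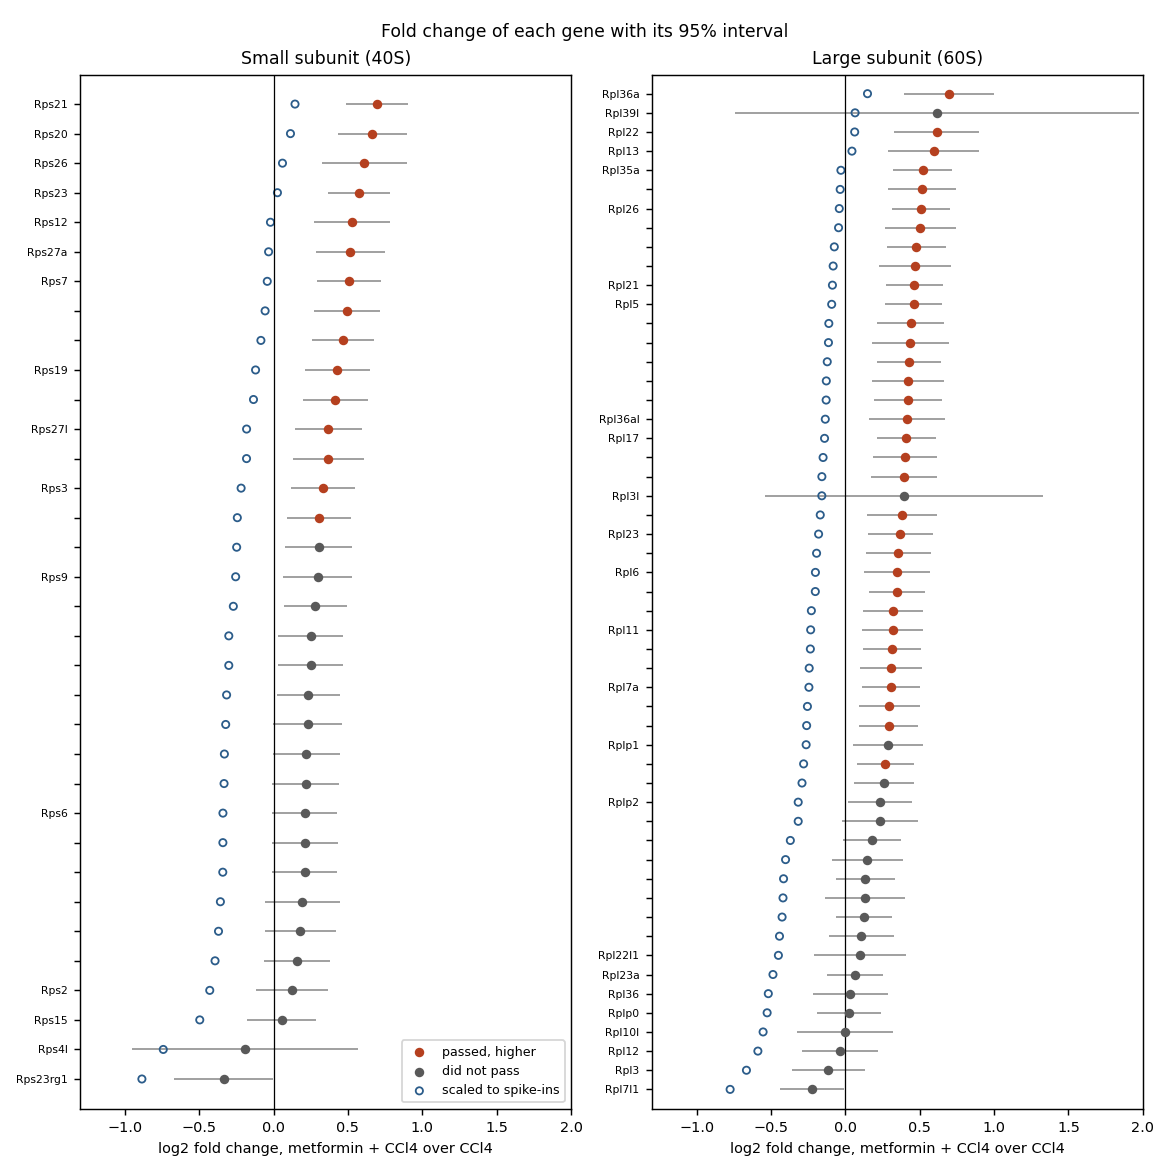
Log2 difference, metformin plus CCl4 minus CCl4, for each of the 87 ribosomal protein genes with its 95% interval from limma after P75 scaling, and the same difference after spike-in scaling; a selection of genes is labelled. By P75 scaling 81 of 87 differences are above 0 and 48 genes are called higher, while by spike-in scaling 8 are above 0 and 14 are called lower.

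The largest rises by P75 scaling were in proteins of both subunits. Rpl36a, a large subunit protein at the tRNA exit site, was at 5.40, 5.40, 5.60 and 5.49 in CCl4 mice 1 to 4, and at a lowest, median and highest of 5.84, 6.27 and 6.39 with metformin. Its metformin values all lay above the CCl4 values, with the lowest in mice 1 and 2, and the difference was 0.70 ± 0.14 (SE; limma adjusted p = 0.0047). Rps21, a small subunit protein with a tract across its annotated start, was at 4.32, 4.25, 4.46 and 4.36 with CCl4 and at 4.93, 5.02 and 5.14 (lowest, median and highest) with metformin. It differed by 0.69 ± 0.093 (SE; limma adjusted p = 6.7e-04), with no overlap between the groups. For Rps20, a protein of the head of the small subunit, the CCl4 mice read 8.25, 8.15, 8.11 and 8.13. The metformin mice read 8.64, 8.86 and 9.02 at the lowest, the median and the highest, a difference of 0.66 ± 0.11 (SE; limma adjusted p = 0.0016).

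Rpl22, a large subunit protein whose paralog is Rpl22l1, gave 6.66, 6.68, 6.83 and 6.59 in the CCl4 mice and 6.99, 7.41 and 7.51 (lowest, median and highest) in the metformin mice. The groups were apart and the difference was 0.61 ± 0.13 (SE; limma adjusted p = 0.0066). Rps26, which lies by the mRNA exit channel, gave 6.78, 6.84, 6.66 and 6.76 against 7.02, 7.46 and 7.58, a difference of 0.61 ± 0.13 (SE; limma adjusted p = 0.0071). Rps12, of the small subunit head, was at 8.07, 7.94, 8.00 and 8.03 with CCl4 and at 8.29, 8.59 and 8.72 with metformin, and differed by 0.53 ± 0.12 (SE; limma adjusted p = 0.0083). In each of these genes metformin mice 1 and 2 were the lowest of their group. Rpl13 had the widest scatter among CCl4 mice of the 8 largest rises, at 7.54, 7.28, 6.82 and 7.16, against 7.65, 7.77 and 7.91 with metformin. CCl4 mouse 1 lay close below the metformin mice, and the difference was 0.59 ± 0.14 (SE; limma adjusted p = 0.011). By spike-in scaling these genes gave between -0.02 (Rps12) and 0.15 (Rpl36a).

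**Figure D3:**
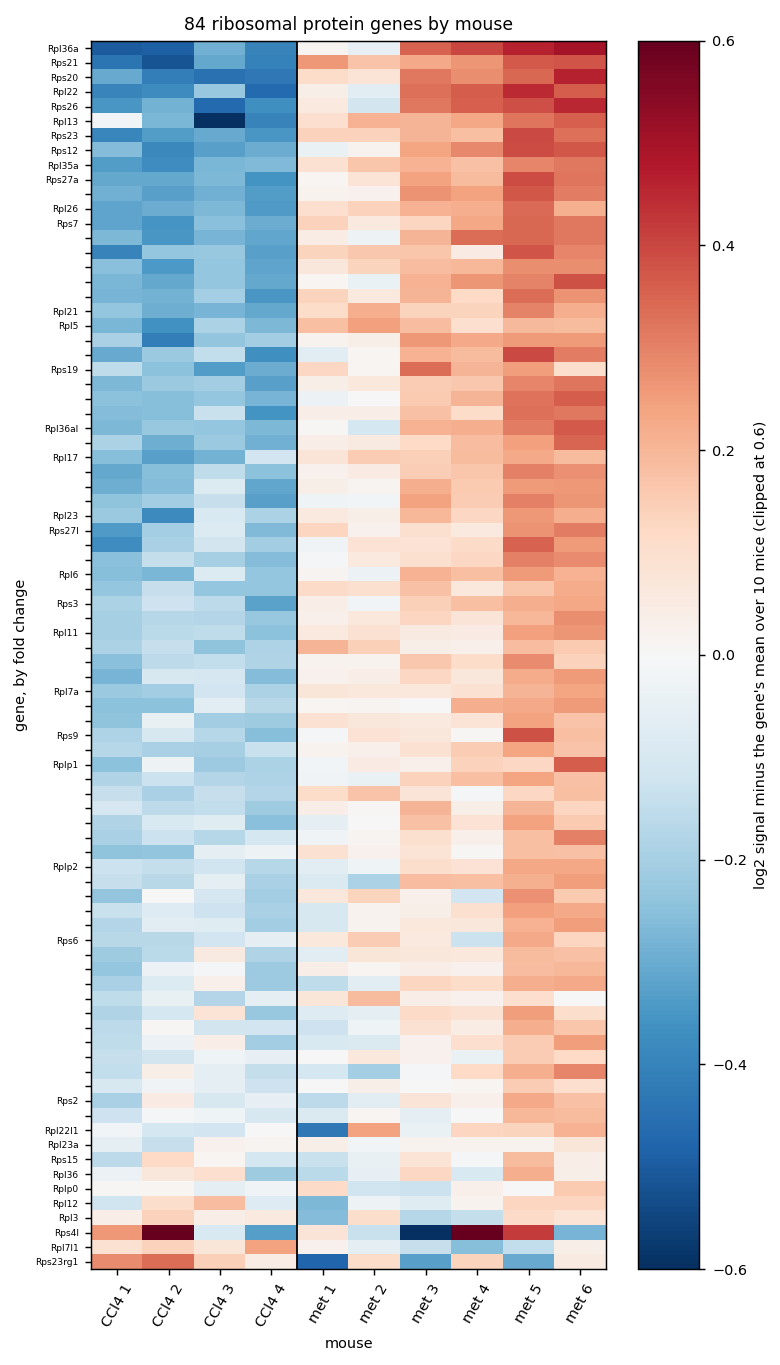
Level of the 84 ribosomal protein genes well above background in each of the 10 mice as the difference, in log2 units after P75 scaling, from the gene's mean over all mice (colours clipped at 0.6), with genes ordered by their difference between the groups. Most genes are low in the 4 CCl4 columns and high in the metformin columns, most strongly in metformin mice 3 to 6, and the colours compare mice within a gene only; the direction turns for most genes under spike-in scaling.

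The genes at the other end had no rise by P75 scaling. Rplp0, the stalk base protein often used as a reference gene, was at 8.74, 8.74, 8.67 and 8.71 with CCl4 and at a lowest, median and highest of 8.60, 8.75 and 8.89 with metformin. The groups overlapped, and the difference was 0.02 ± 0.097 (SE), with a 95% interval of -0.19 to 0.24. The other stalk proteins were not called either, although their groups did not overlap: Rplp1 differed by 0.29 ± 0.11 (SE; limma adjusted p = 0.083) and Rplp2 by 0.23 ± 0.098 (SE; limma adjusted p = 0.13). Rpl3, of the peptidyl transferase region, gave -0.11, Rpl12, of the stalk base, -0.04, and Rpl36, Rps15 and Rpl23a gave 0.03, 0.05 and 0.06, and all of these overlapped. Rpl3, Rpl12, Rpl36, Rps15, Rpl23a and Rplp0 were among the genes called lower by spike-in scaling.

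Of 53 large subunit genes 33 rose (62.3%; median difference 0.35), and of 34 small subunit genes 15 rose (44.1%; median 0.29), by P75 scaling; the difference between the subunits was not tested, and by spike-in scaling the medians were -0.20 and -0.26. Around the exit of the tunnel through which the nascent chain leaves, 8 of 9 proteins rose (88.9%, against 55.2% of the family). They were Rpl22, Rpl26, Rpl4, Rpl39, Rpl35, Rpl17, Rpl19 and Rpl31, with differences of 0.32 to 0.61. The exception was Rpl23a, a docking site for factors that meet the nascent chain, at 0.06. Rpl26 was at 6.73, 6.75, 6.78 and 6.71 in the CCl4 mice and at 7.15, 7.26 and 7.39 (lowest, median and highest) with metformin, a difference of 0.51 ± 0.089 (SE; limma adjusted p = 0.0025). Its groups were far apart for their spread, and by spike-in scaling its difference was -0.04.

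Of 5 proteins at the decoding site and the mRNA entry, 2 rose by P75 scaling (40%, against 55.2% of the family). By spike-in scaling none did. Rps23, which reaches into the decoding centre, was at 6.99, 7.05, 7.08 and 7.03 with CCl4 and at 7.52, 7.57 and 7.78 (lowest, median and highest) with metformin. The groups did not overlap, with a difference of 0.58 ± 0.094 (SE; limma adjusted p = 0.0018). Rps3, at the mRNA entry, was at 5.63, 5.69, 5.66 and 5.50 against 5.80, 5.98 and 6.05, a difference of 0.33 ± 0.096 (SE; limma adjusted p = 0.032). Rps9, its neighbour at the entry, gave 0.30 (limma adjusted p = 0.076) with groups apart. Rps2, also at the entry, gave 0.12 and Rps15, near the decoding site, 0.05, and both overlapped.

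Several ribosomal proteins bind the ubiquitin ligase Mdm2 when they are free of ribosomes, which stabilises p53. Of 8 with such a link 7 rose by P75 scaling (87.5%, against 55.2% of the family) and Rps27, at 0.18, was not called. By spike-in scaling none of the 8 was called and the median was -0.18. Rpl5, which with Rpl11 and 5S ribosomal RNA forms the particle that holds Mdm2, was at 5.33, 5.24, 5.41 and 5.33 with CCl4. With metformin its lowest, median and highest were 5.70, 5.79 and 5.84, and the difference was 0.46 ± 0.086 (SE; limma adjusted p = 0.0038). Rpl11 was at 8.46, 8.50, 8.51 and 8.42 against 8.71, 8.74 and 8.93, a difference of 0.32 ± 0.093 (SE; limma adjusted p = 0.034). Neither gene's groups overlapped. Rpl23 differed by 0.37 (limma adjusted p = 0.022), and Rps7 by 0.51 (limma adjusted p = 0.0039).

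Of 18 genes whose human counterparts are mutated in Diamond-Blackfan anaemia, a failure of red cell formation, 13 rose by P75 scaling with a median of 0.42. This share was 72.2%, against 55.2% of the family. By spike-in scaling none of the 18 was called and the median was -0.13. Rps19, the gene most often affected, was at 5.49, 5.40, 5.31 and 5.34 in the CCl4 mice and at 5.65, 5.81 and 5.98 (lowest, median and highest) with metformin. The groups did not overlap, and the difference was 0.43 ± 0.099 (SE; limma adjusted p = 0.011). Rpl35a was at 6.88, 6.84, 6.94 and 6.95 against 7.30, 7.41 and 7.53, a difference of 0.52 ± 0.090 (SE; limma adjusted p = 0.0025). The 5 not called, among them Rps10, Rps15a, Rps27 and Rps29, gave 0.18 to 0.30. Rps6, whose protein is phosphorylated downstream of mTORC1, was at 7.62, 7.62, 7.67 and 7.73 with CCl4 and at 7.65, 7.88 and 8.01 with metformin, overlapped, and gave 0.21 (limma adjusted p = 0.18); the arrays measure its message and not its phosphorylation.

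Paralogs are copies of a ribosomal protein gene that can replace the common form or are used in particular tissues. Of 8 measured genes on the list used, 2 rose by P75 scaling (25%, against 55.2% of the family), and by spike-in scaling both were negative. Only 5 of the 8 were well above background on all 10 arrays, both called genes among them, which lowers the share. Rpl36al, a close copy of Rpl36a, was at 6.26, 6.30, 6.30 and 6.26 with CCl4 and at 6.42, 6.74 and 6.90 with metformin, a difference of 0.42 ± 0.11 (SE; limma adjusted p = 0.026). Rps27l, a p53 target, was at 7.13, 7.26, 7.38 and 7.20 against 7.49, 7.58 and 7.77, a difference of 0.37 ± 0.10 (SE; limma adjusted p = 0.026). Both genes had groups that did not overlap, and metformin mouse 2 was the lowest of its group in each.

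Rpl7l1, a protein of ribosome assembly, had the opposite order: 0.71, 0.75, 0.69 and 0.86 with CCl4, and 0.36, 0.52 and 0.65 (lowest, median and highest) with metformin. Every metformin mouse was below every CCl4 mouse, and the difference of -0.22 ± 0.098 (SE) had an adjusted p of 0.15 in limma. Rps23rg1, a retrogene of Rps23, gave -0.34 (limma adjusted p = 0.16), while Rps23 itself rose. Rpl22l1 gave 0.10 with groups that overlapped, metformin mouse 1 lying below all CCl4 mice. Rps4l scattered widely, from 1.96 to 3.88 with metformin and from 2.86 to 3.81 with CCl4. Rpl3l, the muscle form of Rpl3, and Rpl10l, the testis form of Rpl10, were not well above background on any array, and Rpl39l, another testis form, was so on 1 metformin array. The 84 other genes were well above background on all 10 arrays.

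A few ribosomal proteins are made as fusions with ubiquitin or a ubiquitin-like protein. Rps27a was at 7.88, 7.88, 7.92 and 7.83 with CCl4 and at 8.20, 8.40 and 8.58 (lowest, median and highest) with metformin, a difference of 0.52 ± 0.10 (SE; limma adjusted p = 0.0053). Fau, which encodes Rps30 and is no member by its symbol, differed by 0.37 (limma adjusted p = 0.033). Both differences were below 0 by spike-in scaling, at -0.03 and -0.18.

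Different probes of a gene were compared next, since a probe can also bind copies of the gene elsewhere in the genome, and ribosomal protein genes have many processed pseudogenes of near-identical sequence; how far any probe binds such copies was not tested. There were 55 genes with more than 1 probe and 32 with 1. Of 178 probes 171 were well above background on all arrays, and of these 87 were called higher by P75 scaling, 0 lower and 84 not called, while 158 were positive; the background over all probes was 12.8% higher and 8.70% lower. By spike-in scaling 1 of the 178 probes was higher and 37 were lower. The 1 probe called lower by P75 scaling belonged to Rps15a, was well above background on 1 array and gave -1.19. Over 53 genes with several probes well above background the median range of a gene's probes was 0.14, and in 45 genes all were positive. In 15 genes the probes had different calls, always higher against not called.

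All 7 probes of Rpl17, a tunnel exit protein, were called higher, at 0.39 to 0.93. The widest ranges were in Rpl21, from -0.79 to 0.46 over 3 probes, and Rpl6, from -0.44 to 0.35 over 4 probes, and in both the negative probes were not called. In Rpl7a the 4 probes ran from 0.04 to 0.74. Rps3, named above as rising, had a second probe at -0.15 that was not called. When a gene was instead represented by the mean of its probes, 38 genes were called higher and 0 lower. The authors' deposited table holds log2 values of 4595 probes (8.25% of all), which its first line says were kept for an FDR below 0.01 and a fold change above 1.5, so its probes were selected for a difference. It contains 4 ribosomal protein probes (2.25% of theirs), of Rpl17, Rpl26, Rpl39 and Rpl7a. All 4 were higher with metformin in the authors' deposited table, as were 2294 of its 4595 probes, with differences of group means of 0.83, 0.84, 0.79 and 0.64, and none was its gene's brightest probe.

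**Figure D4:**
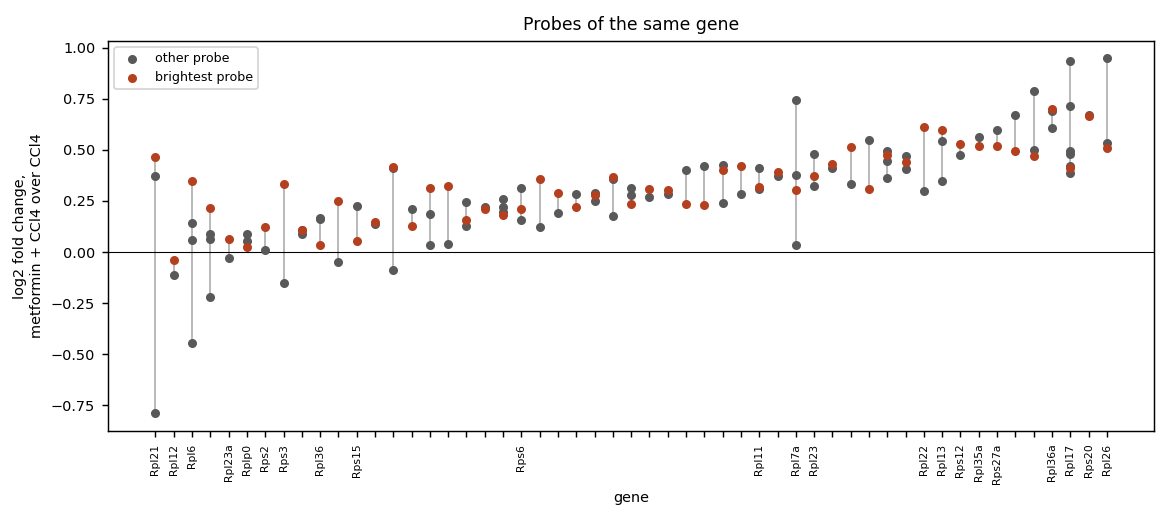
Log2 difference between the groups for every probe of the ribosomal protein genes with several probes well above background, after P75 scaling (vertical), with each gene's probes joined by a line (horizontal position, by gene) and its brightest probe in red. Most probes lie above 0 and the median range is 0.14, and Rpl21 (-0.79 to 0.46), Rpl6 and Rpl7a spread most; by spike-in scaling 1 of the 178 probes was called higher and 37 lower.

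Other parts of the protein synthesis apparatus were set beside the family from lists of genes with known roles. By P75 scaling 23.0% of the named genes well above background on all 10 arrays were higher and 15.2% lower. Mitochondrial ribosomal proteins, which form the separate ribosome of mitochondria, had 38 of 78 higher and 5 lower by P75 scaling, with a median of 0.31. Mrpl49 differed by 0.98 (limma adjusted p = 8.1e-04) and Mrps6 by 0.89 (limma adjusted p = 5.1e-04), and Mrps27 fell by 0.76. Both rises were larger than that of any cytosolic gene by its brightest probe. Other probes of Rpl26 and Rpl17 gave 0.95 and 0.93, more than Mrps6. By spike-in scaling 0 of the 78 mitochondrial genes were higher and 21 lower, with a median of -0.24. Ribosome biogenesis factors, which process ribosomal RNA and assemble the subunits, had 6 of 58 higher and 15 lower, with a median of -0.14. Tsr1, a factor of late small subunit assembly, fell by 0.92 (limma adjusted p = 0.0012) and Nob1, the nuclease that trims 18S ribosomal RNA, by 0.85 (limma adjusted p = 0.0081). Higher in this list were Npm1, at 0.71, Imp3, Efl1, Heatr1, Riok2 and Tcof1. By spike-in scaling the median was -0.69, with 0 higher and 41 lower.

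**Figure D5:**
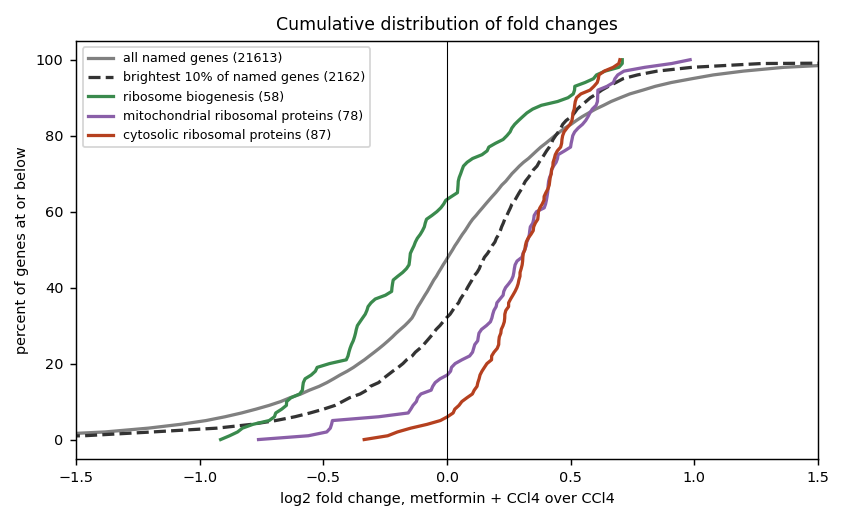
Cumulative share of genes (vertical) at or below each log2 difference between the groups after P75 scaling (horizontal), for the 87 cytosolic and 78 mitochondrial ribosomal protein genes, 58 biogenesis genes, all named genes and the brightest 10% of them. The medians are 0.32, 0.31, -0.14, 0.02 and 0.17; by spike-in scaling each curve moves left, and the cytosolic median is at -0.24 and that of all named genes at -0.53.

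Of 14 genes of RNA polymerase I and its factors, which make the ribosomal RNA precursor, 3 were higher (Polr1a, Polr1c and Znrd1) and 3 lower (Polr1b, Polr1e and Taf1b) by P75 scaling, and 0 and 4 by spike-in scaling. By P75 scaling the share was 21.4% each way. Polr1a, the largest subunit, differed by 0.71 (limma adjusted p = 0.0046) and Taf1b by -0.80 (limma adjusted p = 0.031). Of 19 measured genes of other proteins with TOP messages 5 were higher (Npm1, Naca, Eef1d, Eif3k and Eif3h) and 4 lower (Vim, Pabpc1, Eef1g and Eef2). These shares were 26.3% and 21.1%, against 25.9% and 10.4% of the brightest 10% of named genes. Vim, of the intermediate filaments of mesenchymal cells, fell by 0.87 (limma adjusted p = 0.049). The elongation factor gene Eef1a1, a typical TOP message, gave 0.02, Eef2 fell by 0.30 (limma adjusted p = 0.047), and Rack1, a protein of the small subunit outside the naming rule, gave 0.27 (limma adjusted p = 0.074). By spike-in scaling 0 of the 19 were higher and 9 lower.

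Among 18 genes that control translation of TOP messages or mTORC1, 8 were higher and 1 lower by P75 scaling. These shares were 44.4% and 5.56%, against 23.0% and 15.2% of the named genes well above background on all 10 arrays. Scaling to spike-ins gave 1 higher and 6 lower, where 2.70% of all named genes were higher and 48.6% lower. Mlst8, a subunit shared by both mTOR complexes, was at 0.24, -0.01, 0.00 and -0.06 with CCl4 and at 0.93, 1.13 and 1.43 (lowest, median and highest) with metformin. Its groups were apart, the difference was 1.09 ± 0.13 (SE; limma adjusted p = 3.5e-04), and it was the gene of this list still called higher by spike-in scaling, at 0.54. Also higher were Mtor, Rptor, Rheb and Rps6kb1, which carry or pass on the signal, and Tsc1, Tsc2 and Eif4ebp2, which restrain it. Tsc2 differed by 1.08 (limma adjusted p = 0.033) but was well above background on 1 of the 4 CCl4 arrays and overlapped. Eif4ebp1, an inhibitor of cap-dependent translation, fell by 0.43 (limma adjusted p = 0.047), and Larp1 gave 0.31 (limma adjusted p = 0.073). Differences in this list ran from -2.05 to 1.09 by P75 scaling, and the gene at -2.05 was not called.

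The arrays measure whole tissue, in which fewer cells of a type and less RNA per cell cannot be told apart. All 14 hepatocyte markers were well above background on all arrays; 0 were higher and 4 lower (Tat, Fga, Cps1 and Apoa1), and their mean level per mouse was 8.84 to 9.15 with metformin and 9.16 to 9.40 with CCl4. Stellate cell markers had 6 of 8 lower, with mean levels of -0.16 to 0.57 and 0.73 to 1.41. Neutrophil markers had 5 of 9 lower (-1.05 to 0.99 and 0.21 to 1.44), erythroid markers 3 of 5 (0.81 to 1.31 and 1.42 to 1.72), macrophage markers 3 of 10 (2.72 to 3.48 and 3.29 to 3.72) and endothelial markers 2 of 6 (1.005 to 1.74 and 1.51 to 1.97). Bile duct markers had 2 of 6 lower and 1 higher (-2.56 to -1.60 and -1.73 to -1.03), and lymphocyte markers 0 of 12 in either direction (-2.17 to -1.13 and -2.01 to -1.40). These counts are by P75 scaling. There, 23.0% of the named genes well above background on all 10 arrays were higher and 15.2% lower. By spike-in scaling none of these markers was called higher. The 2 largest called changes of each list were -1.36 and -1.25 for Tat and Fga, -1.59 and -1.28 for Reln and Des, and -1.89 and -1.82 for Retnlg and Ngp. They were -1.02 and -0.995 for Hbb-b1 and Hba-a1, -1.22 and -0.84 for C1qb and C1qa, -1.28 and -0.88 for Vwf and Pecam1, and -1.17 and -1.14 for Krt19 and Krt7. The lymphocyte marker Ncr1 and 1 erythroid marker were not well above background on any array, and the bile duct markers Krt7 and Epcam and the lymphocyte markers Cd8a and Cd79a were so on some arrays only. The part of the cell types in the ribosomal protein result was not tested.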

How the data were processed

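Total RNA (integrity number above 8, 100 ng) was labelled with Cy3 and hybridised to 1-colour Agilent arrays, per the labels. The deposited spot intensities were made, background-subtracted and detrended with Feature Extraction 10.7.3.1, per the file headers, and were not normalized between arrays. The authors also deposited log2 values of 4595 probes. The log2 of the processed intensity minus the array's P75 (237 to 363 in signal units) was used; 135 to 179 irregular spots per array were left out, 0 spots were saturated, and spots of a probe were averaged. Between 51.2% and 54.9% of probes were well above background; the number of arrays limits the precision. Accessions named 28664 of 55681 probes through RefSeq (GRCm38.p6, names only, since the grid file is of another build). Groups were compared with limma 3.58.1 in R 4.3.3 (two-sided, Benjamini-Hochberg over 55681 probes). The labels name separate mice. In simulated data for this comparison (55681 probes), limma recovered 51% of 100 probes changed by 1.0 on the log2 scale and 3% of 100 changed by 0.5, with 6 false calls. Far fewer probes were changed there than the 12.8% called higher and 8.70% called lower in the data. The median residual SD was 0.11 for the ribosomal protein genes and 0.25 over all named genes. The recovered shares therefore cannot be carried over to this family. The members and lists were chosen with earlier results of these data known. Named with values were the 8 largest rises, the stalk, paralog, fusion and decoding lists (a few genes are not reported here), Rpl5, Rpl11, Rpl23, Rps6, Rps19 and Rps3, and the 2 largest called changes of each other list; genes outside this rule that are named were chosen after their values were seen. Alternatives covered scaling, background correction, filters, probe choice, weights, slide row, the replicate block, threshold and leaving out each mouse. Plots were drawn with matplotlib 3.10.9.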

Additional observations from a re-analysis of the deposited data

How the results depend on the processing

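The count of ribosomal protein genes called higher, 48 with the main setting, was 0 with scaling to spike-ins, 28 with the 75th percentile over detected probes, 20 with slide row as a covariate, 1 with row 1 arrays alone and 5 at the stricter threshold. It ranged from 29 to 48 when each mouse was left out. The count called lower, 0 with the main setting, was 14 with spike-ins, 2 with quantile normalization (Rpl3 and Rpl7l1) and 1 with the 75th percentile over detected probes (Rpl7l1), and 0 in each fit that left out a mouse. The median difference of 0.32 became 0.18 with quantile normalization and -0.24 with spike-ins. With spike-ins 73 of the 87 genes turned from a positive to a negative difference; among the genes named by rule, those with a call under either scaling that turned sign were Rps12 (-0.021), Rplp0 (-0.53), Rpl36al (-0.14), Rps27l (-0.18), Rps27a (-0.034), Fau (-0.18), Rps2 (-0.43), Rps3 (-0.22), Rps15 (-0.50), Rpl5 (-0.092), Rpl11 (-0.23), Rpl23 (-0.18), Rps19 (-0.12), Rpl26 (-0.041), Rps7 (-0.043) and Rpl35a (-0.030). Scaling to the median gave 32 higher, quantile normalization 45 (44 of them among the 48), normexp 48 (43 among the 48), the mean of a gene's probes 38, detected probes 56 of 84, array weights 56 and a trended, robust spread 61. The row fits and the fits without a mouse used fewer arrays or one more term; the causes of the other moves were not tested.

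With the replicate number as a block, 0 ribosomal protein genes were called higher and 0 lower in limma (24 and 0 at an unadjusted p below 0.05); only mice 1 to 4 carry a partner number, and the median difference was 0.26. Same-numbered mice of the 2 groups did not deviate together: the correlations of their deviations were -0.14, -0.16, 0.06 and -0.0026 over 25437 probes, and 1 of 8 mice correlated best with its own number. The numbers are therefore not taken to pair the mice. The files have no column of gene symbols and no mean spot signal, so naming by the files' own symbols was not run, and normexp used median signals. Slide, scan day and group cannot be told apart at any setting.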
